A study of Mus musculus with 6 samples.

Results

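Of 50910 barcodes kept from 6 mouse kidneys, 269 were cells that carried Havcr1, the gene of kidney injury molecule 1, and no UMI of the immune, endothelial, stromal or B cell genes Ptprc, Pecam1, Col1a1 and Cd79a. A UMI is 1 counted RNA molecule. A cell was a member with at least 2 UMIs of Havcr1, or with at least 1 UMI each of Havcr1 and Vcam1, in a barcode of at least 1000 UMIs with at most 50% mitochondrial (mt-) UMIs. They are called injured cells here. The reference cells were the 32481 barcodes of the same mice that passed the same limits on UMIs and mt- UMIs, likewise had no UMI of those 4 genes, had no Havcr1 and at least 2 UMIs of Slc34a1, the sodium-phosphate cotransporter of the proximal tubule. In GRCm39, Havcr1 (ENSMUSG00000040405) lies at chr11:46625907-46670405 on the plus strand, Vcam1 (ENSMUSG00000027962) at chr3:115903598-115923355 on the minus strand and Slc34a1 (ENSMUSG00000021490) at chr13:55546000-55563413 on the plus strand.

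Whole kidneys of 3 sham and 3 DOCA-salt mice were dissociated, and each mouse gave a 10x library of its own. All were male C57BL/6 mice, purchased at 8 to 10 weeks of age. DOCA-salt mice lost the left kidney, received a subcutaneous 50 mg pellet of deoxycorticosterone acetate, a mineralocorticoid, 1 week later, and drank 1% NaCl for 21 days. Sham mice had a sham operation, no pellet and plain water, so nephrectomy, steroid and salt cannot be told apart. The libraries held 93172739 to 137819127 UMIs, and between 7205 and 9112 barcodes per mouse were kept.

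The proximal tubule reabsorbs most of the filtered sodium, glucose, amino acids and phosphate, and it burns fatty acids to pay for that transport. When its cells are damaged they put Havcr1 on their apical membrane, where it serves as a receptor for apoptotic cells and debris. Cells that do not recover can keep Vcam1, an adhesion molecule for leukocytes, and a secretory, inflammatory state has been described for them in several models of kidney injury.

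The injured cells were found almost entirely in DOCA-salt mice. There were 81, 89 and 87 of them in the DOCA-salt mice and 4, 2 and 6 in the sham mice, 257 against 12 in all. They made up 0.931%, 0.977% and 1.05% of the kept barcodes in DOCA-salt mice (0.985% ± 0.0578, SD, n = 3) and 0.0450%, 0.0278% and 0.0691% in sham mice (0.0473% ± 0.0208, SD, n = 3). The ranges did not overlap, and the difference of 0.937 percentage points gave p = 0.1 in the two-sided exact permutation test, the smallest that 3 mice against 3 allow. Thinning every barcode to 1000 UMIs lowered both shares, to 0.141% ± 0.0315 in DOCA-salt and 0.00890% ± 0.0137 in sham mice (SD, n = 3), and the direction stayed. In dissociated tissue, a larger share of one type and a loss of the others cannot be told apart.

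**Figure D1:**
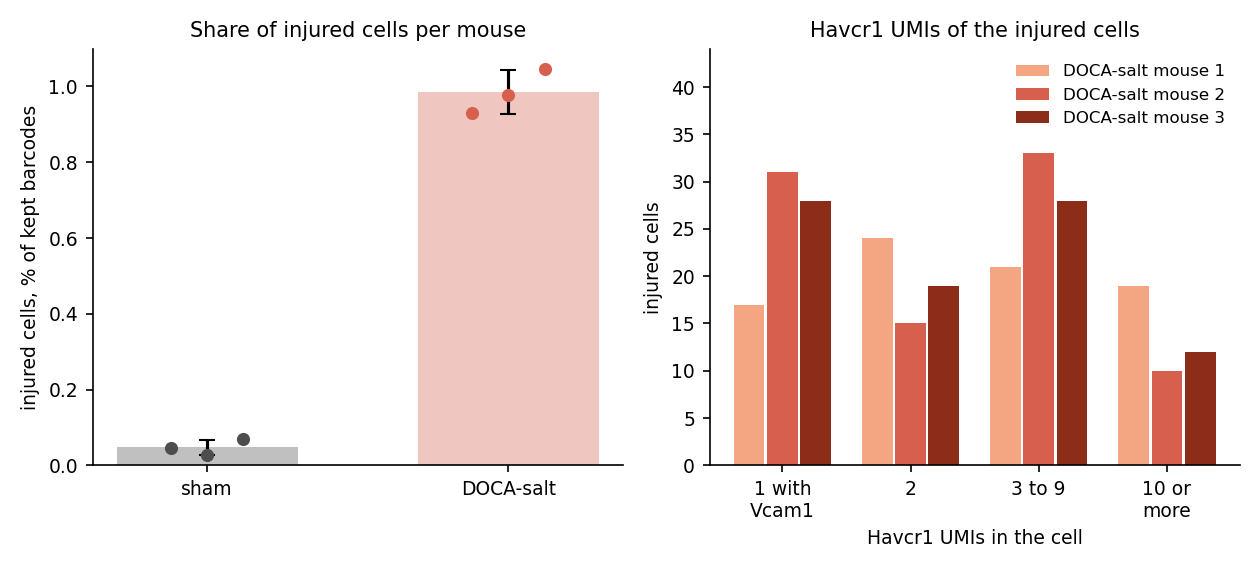
Left, injured cells as a percentage of kept barcodes, 1 point per mouse with the mean (bar) and SD (line) of 3 mice per group. Right, number of injured cells of each DOCA-salt mouse by the Havcr1 UMIs of the cell. The 3 DOCA-salt mice sit between 0.931% and 1.05% and the 3 sham mice at or below 0.0691%.

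Havcr1 and Vcam1 chose these cells, so their values are given as a description. The median cell of a DOCA-salt mouse held 2 Havcr1 UMIs, and the highest held 99, 50 and 48 in the 3 mice. Of the 257 cells, 76 had 1 UMI of Havcr1 together with Vcam1, 58 had 2 UMIs, 82 had 3 to 9 and 41 had 10 or more. The injured cells carried 73.8%, 44.8% and 51.6% of all Havcr1 UMIs of the kept barcodes. Just inside the limit were 24 DOCA-salt cells with 2 Havcr1 UMIs and no Vcam1, and just outside it 227 with 1 UMI and no Vcam1, and 39 such cells in sham mice. The cells just outside had lower mean levels of the adhesion receptor Cd44, 3.5 CPM (UMIs of the gene per 1000000 UMIs other than mt- ones), than those just inside, 31.6 CPM, and the reference cells had 6.4 CPM. The 24 cells just inside are among 55 with at least 2 Havcr1 UMIs and no Vcam1, which held 11 Cd44 UMIs in all. Their mean thus rests on few molecules, and the difference at the limit was not tested. The condition of no immune, endothelial or stromal UMI left out 127 of 384 Havcr1-positive cells of the DOCA-salt mice. Of these 384 cells, 63 held Col1a1, 50 Pecam1, 35 Ptprc and 1 Cd79a.

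The label of tubule cells was read against Slc34a1, which the choice of the injured cells did not use and which cells of other types also carried. At least 2 UMIs of Slc34a1 were present in 88.9%, 88.8% and 93.1% of the injured cells of the 3 DOCA-salt mice and in 11 of the 12 sham cells. In the DOCA-salt mice the share was 90.3% of all 257 injured cells (exact 95% interval 86.0 to 93.6), but also 43.8% of 2255 kept cells with at least 2 UMIs of Ptprc, 52.1% of 2350 with Pecam1, 63.5% of 1239 with Col1a1, 66.2% of 3754 with Slc12a1, the thick ascending limb cotransporter, and 69.9% of 1075 with the principal cell channel Aqp2. Median depths of these classes were 5810, 9258, 12414, 10748.5 and 14904 UMIs, all below the 20426 of the injured cells, and the shares were not compared at 1 depth. Slc34a1 made up 2049 CPM of the summed injured cells against 626 to 1774 CPM in the 5 classes. Having the gene thus does not by itself mark a cell as proximal. Among kept cells with at least 2 UMIs of Slc34a1 and none of Ptprc, Pecam1, Col1a1 and Cd79a, at least 1 UMI of Havcr1 was seen in 434 of 14648 (2.96%, exact 95% interval 2.69 to 3.25) in DOCA-salt mice and in 49 of 18316 (0.268%, 0.198 to 0.354) in sham mice. In DOCA-salt cells without Slc34a1, it was seen in 2 of 581 Ptprc-positive cells (0.344%), in 5 of 548 Pecam1-positive cells (0.912%), in 6 of 608 cells positive for Slc12a1 (0.987%), and in 0 of 130 positive for Aqp2, with an upper exact 95% bound of 2.80%. The median depth was 4654, 6077, 7814.5 and 11455 UMIs in these 4 classes against 10472 in the cells with Slc34a1. These 4 classes also left out every cell of their type that carried Slc34a1, such as all but 581 of the 2255 cells with Ptprc. Their low shares of Havcr1 may follow in part from that choice and do not hold for all cells of these types. Intervals cover counting error only.

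Summed markers of other cells were read in the injured cells of DOCA-salt mice, and the macrophage, parietal epithelial, thin limb and podocyte lists were higher there than in reference cells of every mouse. The sums of neutrophil, T or NK, B cell and erythroid markers reached at most 3.72 CPM in any mouse, and Csf3r, Retnlg, Cd3e, Klrb1c, Ms4a1 and Hbb-bt were at 0. The macrophage list summed to 837 to 1164 CPM against 237 to 442 CPM in reference cells, with no marker at 0. Both populations had been chosen to hold no Ptprc. Of the list's 9 other genes, 1 was higher in injured cells, 5 were lower and 3 did not pass. The higher one was Cd74, the invariant chain of MHC class II, at 765, 1071 and 995 CPM in the injured cells and 127, 274 and 264 CPM in the reference cells (log2 change 2.12, SE 0.11, edgeR adjusted p = 5.09e-07). Complement C1qa had 9.68, 10.1 and 12.7 CPM in the injured cells against 13.5, 23.7 and 22.6 CPM (log2 change -0.91, SE 0.20, edgeR adjusted p = 0.00489), and it no longer passed within 5000 to 20000 UMIs, in cells with over 10 times as many proximal as other-segment UMIs, against reference cells chosen by Lrp2, or without the second DOCA-salt mouse. Thick ascending limb markers summed to 968 to 1633 CPM against 1995 to 2689 CPM, and the distal convoluted, principal and intercalated lists were lower in the injured cells of every mouse as well. The parietal epithelial list (Cldn1, Ncam1 and Akap12) was higher, at 241, 430 and 471 CPM against 81.3, 122 and 114 CPM. The thin limb list (Bst1, Slc14a2, Epha7 and Cryab) was at 853, 753 and 685 CPM against 544, 522 and 492 CPM; the small heat shock protein Cryab (log2 change 0.73) and the ephrin receptor Epha7 (1.00) were higher, while Bst1 (-1.28) and Slc14a2 (-3.90) were lower. The endothelial list was at 31.3, 58.4 and 32.6 CPM against 28.5, 55.7 and 39.3 CPM, the smooth muscle or pericyte list at 174, 179 and 97.7 CPM against 199.6, 171 and 198 CPM, and the fibroblast and urothelial lists were at most 22.3 CPM and lower in every mouse. The part of these cells in the results below was not tested.

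Injured cells were deeper than reference cells. Their median was 23475, 21921 and 17565 UMIs in the DOCA-salt mice against 11034, 11709.5 and 8482 in reference cells, and their median mitochondrial share was 12.7%, 10.6% and 12.2% against 20.4%, 21.7% and 22.4%. A limit of 2 UMIs is met more often by deeper barcodes, so the comparison of injured with reference cells was repeated within 5000 to 20000 UMIs. The barcodes with the highest Scrublet doublet scores, taken at 0.8% per 1000 barcodes of a library, included 6, 7 and 10 injured cells of the DOCA-salt mice (8.92% ± 2.24, SD, n = 3) and 7.83% ± 0.396 of the reference cells. No injured cell shared its barcode with an injured cell of another library, and sharing with other cells was not counted.

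UMIs were summed over the injured and over the reference cells of each DOCA-salt mouse and compared within mice by edgeR's quasi-likelihood test. Of 16029 genes tested, 2473 were higher in injured cells (15.4%) and 2520 lower (15.7%) at a Benjamini-Hochberg adjusted p under 0.05, and the median log2 change over all genes tested was -0.03. With library size as the only scaling the median over all genes stood at 0.149 and the calls were 4009 higher and 1672 lower. Without the second DOCA-salt mouse 1488 were higher and 1745 lower, and within 5000 to 20000 UMIs 1156 and 1609 of 14707 tested. The largest rises among genes of at least 20 CPM were Sorcs1, a sorting receptor, Kcnh8, a potassium channel, Cd44, the chemokine Ccl2, the retinol transporter Stra6, the potassium channel partner Kcnip4, the ubiquitin-like Ubd and Serpina10. Sorcs1 had 67.7, 139 and 108 CPM in injured and 1.74, 1.32 and 3.16 CPM in reference cells, an increase of 5.66 on the log2 scale (SE 0.27). The largest falls were the urea transporter Slc14a2, Egfem1, Lsamp, Cyp2d12, the sodium-calcium exchanger Slc8a1, the proton pump subunit Atp6v1c2, Egf and Aqp2, from -3.90 for Slc14a2 to -2.75 for Aqp2 on the log2 scale. Several of these, among them Slc8a1, Egf and Aqp2, are distal nephron genes, and the sums of distal markers were lower too, as given above. Egf and Aqp2 are themselves on the thick ascending limb and principal lists, so those sums are in part the same values. A limit was added after the data were seen, to cells whose UMIs of thick ascending limb, distal convoluted, principal and intercalated markers were under 1 per 1000 of all their UMIs, which left out 37 of the 257 injured cells of DOCA-salt mice and 3428 of 14214 reference cells. It gave 2527 higher and 2572 lower genes. The limit itself acts on distal genes, so the loss of calls of Aqp2, Egf, Lsamp and Atp6v1c2 under it is not read here. Of 133 genes examined that had passed, 12 no longer did under this limit and Krt18 passed in the other direction. Within 5000 to 20000 UMIs 18 of the 133 no longer passed, among them Cubn, Slc5a1, Fth1, Axl, Bbc3 and Nr3c2, and Cenpf passed in the other direction. In cells with over 10 times as many proximal as other-segment UMIs 25 of 131 no longer passed, among them Slc14a2, Egfem1, Axl, Hk2 and Fos, and without the mouse as a block 14 of 133, among them Fth1, Hsph1, Slc13a1, Krt7 and Krt18.

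Most genes of tubular injury and repair were higher in the injured cells. Of 40 on the list, all tested, 32 were higher in injured cells, 2 were lower and 6 did not pass, with a median log2 change of 1.34. Beside this and each later list of the comparison stand 15.4% higher and 15.7% lower over all genes tested. Within cells of 5000 to 20000 UMIs the counts were 30 and 3. Cd44 measured 142, 106 and 169 CPM in the injured cells of the 3 DOCA-salt mice, 4.95, 6.92 and 7.35 CPM in their reference cells and 2.49, 2.82 and 2.17 CPM in sham reference cells. All 3 injured values lay far above all 6 reference values (log2 change 4.40, SE 0.15, edgeR adjusted p = 4.05e-08). Krt20, a keratin of injured epithelium, was at 26.2, 18.1 and 29.7 CPM against 0.755, 1.15 and 1.38 CPM (log2 change 4.46, SE 0.31, edgeR adjusted p = 2.41e-06). Sox9, a transcription factor of regenerating tubules, was at 133, 102 and 104 CPM against 17.7, 20.9 and 26.8 CPM in DOCA-salt and 5.12, 6.27 and 7.17 CPM in sham reference cells (log2 change 2.37, SE 0.15, edgeR adjusted p = 1.49e-06). Sox9 thus had an order of injured, DOCA-salt reference and sham reference cells with no overlap between them.

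Spp1, which encodes the secreted phosphoprotein osteopontin, was the most abundant injury transcript. It took 32611, 15112 and 22752 CPM in injured cells, 5364, 3797 and 6845 CPM in DOCA-salt reference cells and 959.6, 1702 and 1236 CPM in sham reference cells (log2 change 2.08, SE 0.13, edgeR adjusted p = 1.18e-06). The iron-binding urinary marker Lcn2 was less even, at 247, 248 and 73.6 CPM against 37.3, 80.6 and 46.5 CPM (log2 change 1.76, SE 0.27, edgeR adjusted p = 0.000551), and the third mouse's injured cells lay below the second mouse's reference cells. Clusterin (Clu) rose by 1.71 on the log2 scale, Anxa2 by 2.27, the small heat shock protein Hspb1 by 2.77, the TWEAK receptor Tnfrsf12a by 2.01 and the guanine nucleotide exchange factor Dock10 by 3.41. Vim, the mesenchymal filament, rose by 1.76, and by 1.76 with other-segment UMIs under 1 per 1000. In cells with over 10 times as many proximal as other-segment UMIs, which also leaves out injured cells that have few proximal UMIs (104 of 257 in all), Vim changed by -0.049. Mmp7 was higher in 2 of 3 mice, at 54.1, 14.9 and 0.708 CPM against 0.524, 1.38 and 0.843 CPM, and did not pass with DESeq2. The 2 that fell were the keratins Krt7 and Krt18, at -0.94 and -0.49; both turned positive against reference cells chosen by Lrp2 (0.073 and 0.32), and with other-segment UMIs under 1 per 1000 Krt7 did not pass (-0.61) and Krt18 was higher (0.53). Cdkn1a, the cell cycle inhibitor p21, did not pass (log2 change 0.39, SE 0.25, edgeR adjusted p = 0.27).

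**Figure D2:**
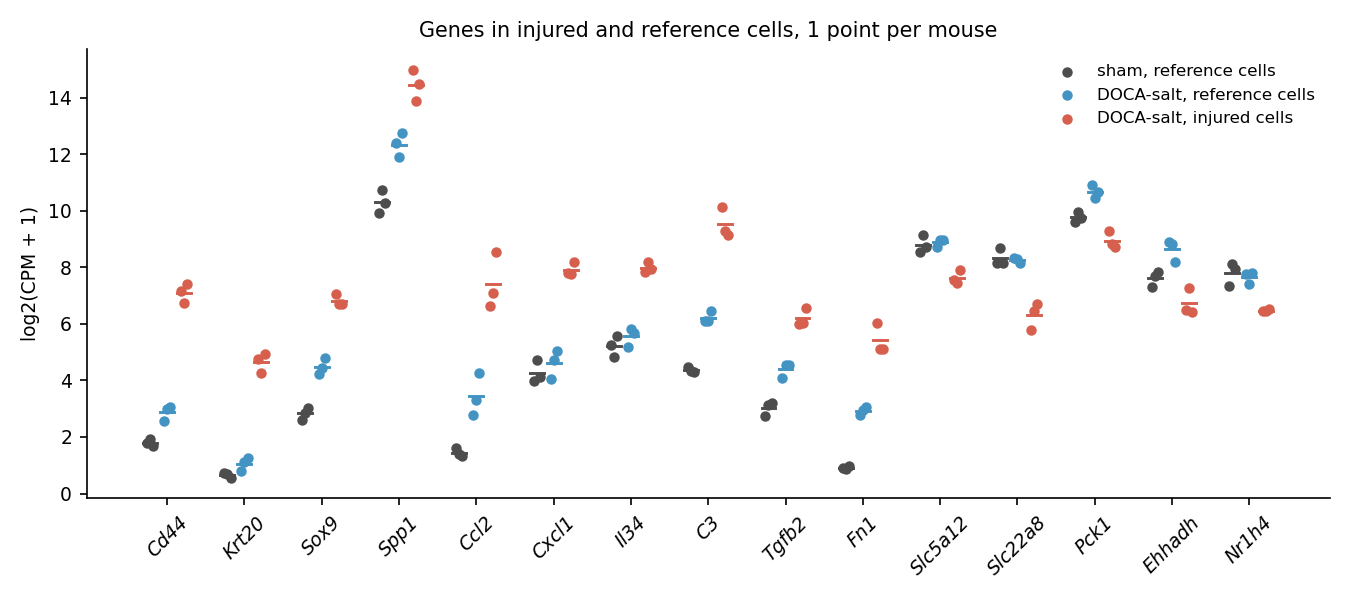
Log2(CPM + 1) of 15 genes, 1 point per mouse and a line at the mean of 3, in reference cells of sham mice, reference cells of DOCA-salt mice and injured cells of DOCA-salt mice. The injury, chemokine and matrix genes from Cd44 to Fn1 are highest in the injured cells, and the proximal tubule and metabolic genes from Slc5a12 to Nr1h4 lowest.

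Inflammatory genes were the list with the largest median change. NF-kB is a transcription factor family that is held in the cytoplasm by IkB proteins and switches on chemokines and its own inhibitors once released. Of the 26 genes listed for it, 25 were tested, 22 were higher in injured cells and 0 lower, with 3 that did not pass, and the median log2 change was 1.83. The counts were 19 and 0 of 23 within 5000 to 20000 UMIs and 22 and 0 of 24 with other-segment UMIs under 1 per 1000. Ccl2, the main attractant of monocytes, was at 99.1, 137 and 369 CPM in injured cells against 5.83, 8.91 and 18.2 CPM in DOCA-salt and 2.03, 1.67 and 1.52 CPM in sham reference cells (log2 change 4.11, SE 0.10, edgeR adjusted p = 3.34e-09). The third mouse was highest in both populations. Ccl2 was carried by 53 of the 257 injured cells and by 280 of 14214 reference cells. Among cells of at least 5000 UMIs, thinned to that depth, the shares were 15.1% and 1.05% on average over the 3 mice.

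The neutrophil attractants Cxcl1 and Cxcl2 were higher as well. Cxcl1 had 221, 219 and 292 CPM in injured and 15.6, 25.7 and 31.8 CPM in reference cells (log2 change 3.33, SE 0.13, edgeR adjusted p = 6.45e-08), and Cxcl2 had 268, 183 and 62.3 CPM and 10.8, 20.8 and 18.7 CPM (log2 change 3.30, SE 0.38, edgeR adjusted p = 8.47e-05). Every injured value of both genes was above every reference value. The T cell attractants Ccl5 and Cxcl10 rose by 2.61 and 2.17 on the log2 scale, Ccl7 by 3.03, and Cxcl16, a ligand held on the membrane, by 1.05. The macrophage growth factors that share the receptor Csf1r were both higher, Csf1 by 2.12 and Il34 by 2.42. Il34 was the more abundant, with 230.0, 289 and 242 CPM in injured against 35.1, 55.6 and 50.1 CPM in reference cells; CPM of the 3-prime assay are not scaled by length. The leukocyte adhesion molecule Icam1 rose by 1.56. Among the pathway's own components, Nfkb1 rose by 1.63, Relb by 1.82, the inhibitor Nfkbia by 1.58, the deubiquitinase Tnfaip3 by 1.83 and the survival factor Birc3 by 2.02.

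The promoters of the genes of the NF-kB list were searched for a binding motif of NF-kB, whether or not the gene was higher. The search used RefSeq windows of 250 bases before to 50 after each gene start (GRCm38.p6). A 10-letter kappa B motif, read on both strands and with its inner bases partly free, stood in 9 of the 19 listed genes that had a window (Ccl20, Csf1, Cxcl1, Cxcl2, Il6, Ltb, Nfkb2, Nfkbia and Tnfaip3) against 512 of all 27025 genes with a window (1.89%). It was chosen from 5 spellings after the matches were counted, and the others, which overlap it in part, matched between 3 and 12 of the 19. Among the 15 genes with a window that were higher in injured cells, 8 held the chosen spelling. The list was made of genes tied to NF-kB, so a share above that of all genes follows in part from its making. A match describes the letters of the window only, and the count does not test NF-kB in these cells. The 3 promoters below belong to 2 chemokines and the inhibitor described above, are written in the direction of transcription, and carry the matching letters in capitals.
Cxcl1, chr5:90890995-90891294, plus strand: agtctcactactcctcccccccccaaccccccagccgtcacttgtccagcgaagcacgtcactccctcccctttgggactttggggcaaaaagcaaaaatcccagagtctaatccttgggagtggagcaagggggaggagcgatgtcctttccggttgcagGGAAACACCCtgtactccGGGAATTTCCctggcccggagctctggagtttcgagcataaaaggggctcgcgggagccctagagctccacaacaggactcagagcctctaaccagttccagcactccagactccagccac
Cxcl2, chr5:90903649-90903948, plus strand: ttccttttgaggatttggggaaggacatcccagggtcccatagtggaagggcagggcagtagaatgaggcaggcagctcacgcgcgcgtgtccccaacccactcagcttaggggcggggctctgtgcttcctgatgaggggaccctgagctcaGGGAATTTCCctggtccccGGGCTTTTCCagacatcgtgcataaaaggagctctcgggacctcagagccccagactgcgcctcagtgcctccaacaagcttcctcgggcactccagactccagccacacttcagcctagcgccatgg
Nfkbia, chr12:55492598-55492897, minus strand: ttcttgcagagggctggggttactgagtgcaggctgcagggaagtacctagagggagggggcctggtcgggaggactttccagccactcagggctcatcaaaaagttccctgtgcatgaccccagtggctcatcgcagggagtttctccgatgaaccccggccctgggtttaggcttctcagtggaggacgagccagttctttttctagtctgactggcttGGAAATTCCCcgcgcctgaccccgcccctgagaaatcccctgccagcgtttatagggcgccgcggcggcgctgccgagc
Cxcl1 held 2 matches that begin 89 and 71 bases before the start, Cxcl2 2 matches that begin 97 and 78 bases before it, and Nfkbia 1 that begins 29 bases before it.

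Complement and antigen presentation genes were largely higher, with 10 of 14 higher and 1 lower (median log2 change 1.30). C3, the central complement component, measured 1111, 620.1 and 569.8 CPM in injured cells, 67.2, 68.3 and 85.9 CPM in DOCA-salt reference cells and 21.3, 19.0 and 18.5 CPM in sham reference cells (log2 change 3.30, SE 0.19, edgeR adjusted p = 7.96e-07). The class I genes H2-K1 and H2-D1 are related in sequence, and some UMIs may be assigned to the wrong one. They rose by 1.53 and 1.53, their partner B2m by 1.20 and the immunoproteasome subunit Psmb8 by 2.29. The complement inhibitor Cd59a was lower at -0.71, but did not pass with other-segment UMIs under 1 per 1000 (-0.28). Its sign turned in cells with over 10 times as many proximal as other-segment UMIs.

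Of the matrix, protease and fibrogenic signals, 15 of 24 tested were higher and 2 lower (median 0.95). Tgfb2, a ligand that drives fibroblasts to make matrix, was at 62.6, 64.8 and 94.1 CPM against 15.9, 22.3 and 22.4 CPM (log2 change 1.83, SE 0.12, edgeR adjusted p = 1.85e-06), and Tgfb1 rose by 1.73. Fibronectin (Fn1) was at 63.8, 34.0 and 33.3 CPM in injured cells, 5.92, 6.69 and 7.35 CPM in DOCA-salt reference cells and 0.876, 0.811 and 0.969 CPM in sham reference cells (log2 change 2.67, SE 0.24, edgeR adjusted p = 1.58e-05). The vasoconstrictor endothelin (Edn1) rose by 2.25, the epidermal growth factor receptor ligand Hbegf by 1.15, the basement membrane chain Col4a1 by 1.05 and Itgav, an integrin subunit that activates latent TGF-beta, by 1.39. Pdgfb, a mitogen of pericytes counted in the injury list, rose by 1.90. The lower ones were the metalloproteinase inhibitor Timp3 (-0.69) and Bmp7 (-0.62), a growth factor of the TGF-beta family known to protect tubules. Bmp7 no longer passed with library size as the only scaling, at most 20% mt- UMIs, within 5000 to 20000 UMIs, in cells with over 10 times as many proximal as other-segment UMIs, without the first DOCA-salt mouse, or without the mouse as a block.

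**Figure D3:**
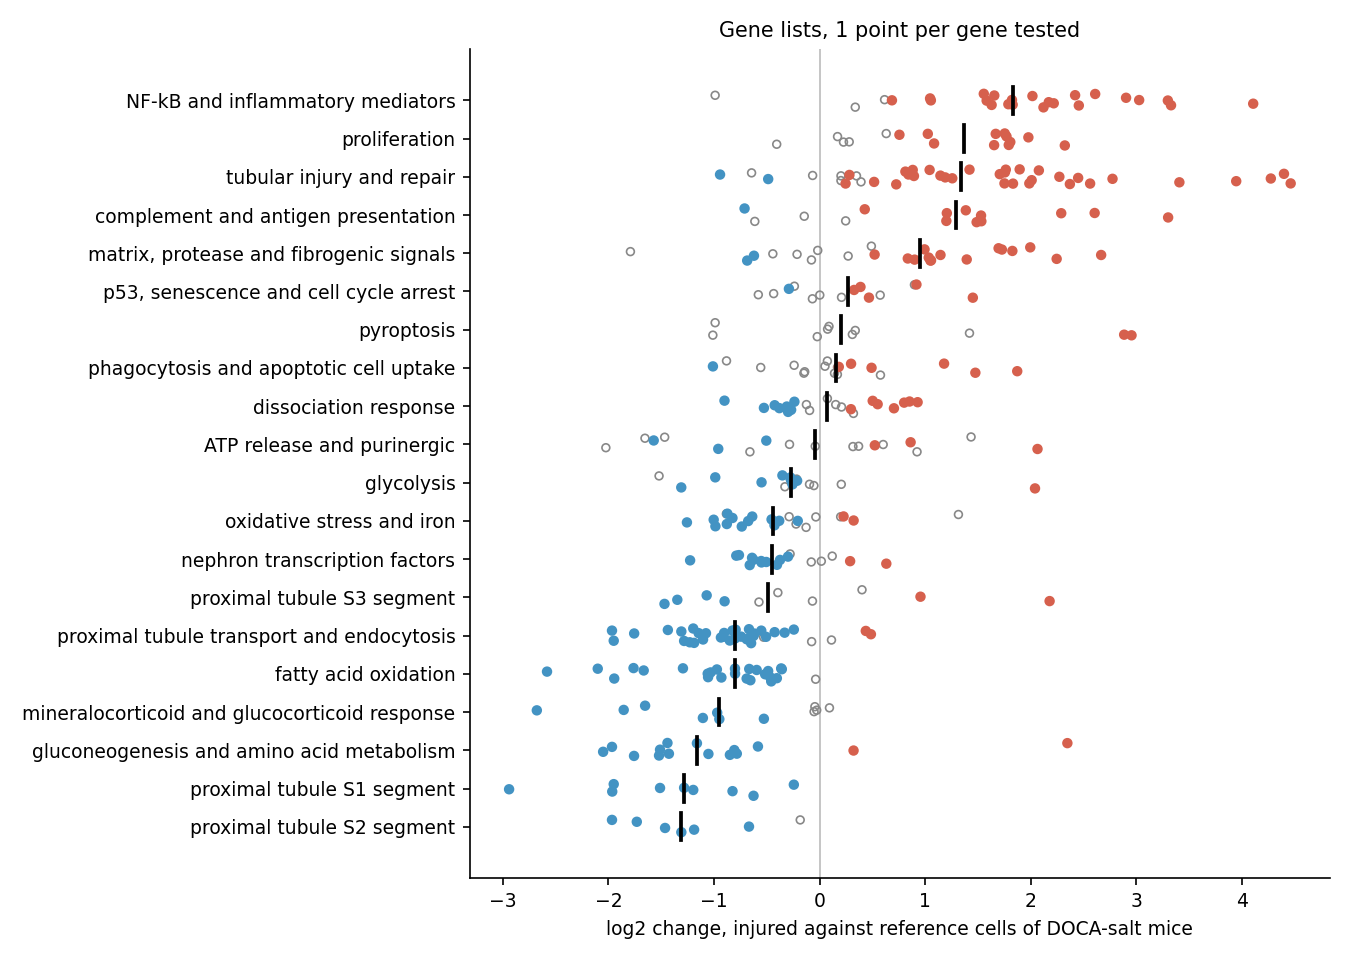
Log2 change of each gene tested in 20 gene lists, injured against reference cells of 3 DOCA-salt mice. Filled red points were higher and filled blue points lower at an adjusted p under 0.05, open points did not pass, and black lines are list medians, from 1.83 for NF-kB and inflammatory mediators to -1.31 for the S2 segment. In the proliferation list, Mki67, Top2a and Cenpf turned negative within 5000 to 20000 UMIs.

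Most transport genes of the proximal tubule were lower in the injured cells. Of 36 transport and endocytosis genes, 31 were lower in injured cells and 2 higher, with a median log2 change of -0.80. The luminal glucose transporter of the early segment, Slc5a2, had 143, 199.6 and 217 CPM against 373, 483 and 387 CPM in reference cells (log2 change -1.20, SE 0.10, edgeR adjusted p = 6.37e-06). The neutral amino acid transporter Slc6a19 fell from 152, 149 and 126 CPM to 41.6, 28.7 and 44.6 CPM and the organic anion transporter Slc22a8 from 319.6, 312 and 287 CPM to 53.5, 87.6 and 103 CPM, log2 changes of -1.95 and -1.97. The endocytic receptors Lrp2 and Cubn changed less, at -0.69 and -0.51. The 2 that rose were the late-segment glucose transporter Slc5a1 (0.44) and the sulfate transporter Slc13a1 (0.49). Slc5a1 also did not pass with at least 3 Havcr1 UMIs or without the second DOCA-salt mouse. Reference cells were chosen by a proximal tubule gene. Against reference cells chosen by Lrp2 instead, 32 of 36 were lower and 2 higher. Lrp2 is also a proximal tubule gene and is on this list, so that run cannot remove the effect of such a choice.

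Lower genes were found in the lists of all 3 proximal segments, and many S1 and S2 genes are also on the transport list above. All 9 genes of the S1 list and 6 of 7 of the S2 list were lower (medians -1.28 and -1.31), whereas the S3 list had 4 lower, 2 higher and 4 that did not pass among 10. The higher ones were Atp11a (0.96) and Serpina1f (2.18); Serpina1f was uneven, at 86.0, 36.1 and 14.2 CPM in the 3 mice against 9.29, 10.5 and 7.44 CPM. Over all genes tested 15.4% were higher and 15.7% lower, and the difference between the lists was not tested.

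Fatty acid oxidation genes were lower almost throughout. Of 25 genes, 24 were lower and 0 higher, with a median log2 change of -0.80, and 22 of 25 were lower within 5000 to 20000 UMIs. Ppara, the transcription factor that drives this pathway, had 56.4, 75.4 and 43.9 CPM against 127, 119 and 107 CPM (log2 change -1.03, SE 0.12, edgeR adjusted p = 7.38e-05). Ehhadh of the peroxisome fell by 1.94, the thiolase Acaa2 by 1.76 and Cpt1a, the gate of mitochondrial uptake, by 0.80 on the log2 scale. The gene that did not pass was Acadl (log2 change -0.04, SE 0.07, edgeR adjusted p = 0.736).

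Gluconeogenesis and amino acid metabolism showed 13 of 15 genes lower and 2 higher (median -1.16). Pck1, which commits oxaloacetate to glucose, had 621, 458 and 422 CPM in injured cells, 1939, 1395 and 1617 CPM in DOCA-salt and 772, 994 and 864 CPM in sham reference cells (log2 change -1.76, SE 0.07, edgeR adjusted p = 9.36e-08). The injured cells lay below both kinds of reference cells, and DOCA-salt reference cells above sham ones. G6pc fell by 2.05, the arginine-synthesizing Ass1 by 1.52 and the creatine-synthesizing Gatm by 1.51. Among those that rose was the mitochondrial arginase Arg2, at 65.5, 43.0 and 32.6 CPM against 8.64, 8.34 and 10.1 CPM (log2 change 2.35, SE 0.21, edgeR adjusted p = 1.59e-05). Of 15 glycolytic genes 1, the hexokinase Hk2, was higher at 16.5, 13.8 and 16.3 CPM against 2.43, 4.48 and 4.49 CPM, and 8 were lower. That list depended on the setting, with 3 lower and 2 higher when only library size was used for scaling and 4 lower and 3 higher with other-segment UMIs under 1 per 1000.

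Nephron transcription factors were lower in 12 of 18 cases and higher in 2, with counts of 6 and 0 within 5000 to 20000 UMIs. Hnf4a, which maintains proximal identity, changed less than many of these genes, from 172, 179.5 and 177 CPM to 119, 153 and 137 CPM (log2 change -0.40, SE 0.08, edgeR adjusted p = 0.0026). The bile acid receptor Nr1h4 fell more, from 214, 170.5 and 221 CPM to 86.0, 86.0 and 90.6 CPM (log2 change -1.23, SE 0.09, edgeR adjusted p = 2.37e-06). The 2 higher ones were Foxc1 (0.63) and Pax8 (0.29), and Pax8 stood at -0.022 when only cells of at most 20% mitochondrial UMIs were used. Neither passed in those cells, within 5000 to 20000 UMIs, under either limit on other-segment UMIs or without the second DOCA-salt mouse. Foxc1 also did not pass without the first mouse, without the highest Scrublet scores or in injured cells with at least 2 UMIs of Slc34a1, and Pax8 not without the third mouse, without the mouse as a block or against reference cells chosen by Lrp2.

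Antioxidant and iron genes were lower in 13 of 22 cases and higher in 2 (median -0.44). The secreted peroxidase Gpx3, made by the proximal tubule for the plasma, had 6485, 8247 and 7035 CPM against 11320.1, 14996 and 11526 CPM (log2 change -0.83, SE 0.05, edgeR adjusted p = 1.58e-06). The oxidase Nox4 fell by 0.99, heme oxygenase (Hmox1) by 1.00, metallothionein Mt1 by 1.26 and the ferritin chain Fth1 by 0.38. Of the p53 and arrest genes, 5 of 14 were higher and 1 lower, among them Trp53 (0.92), the death effector Bbc3 (1.45) and Mdm2 (0.39). Mdm2 no longer passed at 20% mt- UMIs, in cells with over 10 times as many proximal as other-segment UMIs or without the mouse as a block. Of 18 genes of phagocytosis, 6 were higher and 1 lower. The receptor Axl rose by 1.87, the bridging protein Mfge8 by 1.18 and the phosphatidylserine binder Anxa5 by 1.48, while the receptor Mertk fell by 1.01. Over all genes tested 15.4% were higher and 15.7% lower.

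Proliferation genes were higher in 11 of 16 cases and lower in 0, but not within 5000 to 20000 UMIs. Mki67, a marker of cycling cells, had 31.9, 41.9 and 24.1 CPM against 6.71, 15.6 and 6.77 CPM (log2 change 1.77, SE 0.19, edgeR adjusted p = 5.54e-05), and 15 of the 257 injured cells held a UMI of it. Within 5000 to 20000 UMIs, 1 gene of the list was higher and 1 lower, and the log2 changes of Mki67 and Top2a were -2.05 and -0.20. Stmn1, which regulates microtubules, rose in both (1.08 and 0.76).

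The study asked about the ATP channel Panx1 in tubule cells and about P2rx7 and pyroptosis in macrophages. DOCA is a mineralocorticoid, and lists of these 3 kinds were read in the injured cells. The injured cells were chosen to hold no Ptprc, so their values do not bear on macrophages. Panx1 was sparse, at 7.40, 4.25 and 5.66 CPM in injured cells, 1.22, 1.34 and 1.48 CPM in DOCA-salt and 0.615, 0.609 and 0.369 CPM in sham reference cells. The injured values lay above all others (log2 change 2.06, SE 0.39, edgeR adjusted p = 0.00243). Of the 17 genes of ATP release and purinergic signaling, 3 were higher and 3 lower, near the 15.4% and 15.7% of all genes tested and so no result about the list. The higher ones also included the adenosine-forming ectoenzyme Nt5e (0.52), which no longer passed at 20% mt- UMIs, in cells with over 10 times as many proximal as other-segment UMIs, against reference cells chosen by Lrp2 or without the mouse as a block, and the connexin Gjb1 was lower (-1.57). The ATP receptor P2rx7 had 0, 1.59 and 0 CPM in the injured cells (log2 change -0.28, SE 0.96, edgeR adjusted p = 0.857).

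Of 10 pyroptosis genes, 2 were higher and 0 lower, a count of rises near the 15.4% of all genes tested, and no change of the list can be read from it. Casp4, the caspase that senses cytosolic lipopolysaccharide, was at 42.1, 38.2 and 31.9 CPM against 3.84, 5.20 and 5.30 CPM (log2 change 2.96, SE 0.21, edgeR adjusted p = 2.89e-06). The pore former Gsdmd was at 3.42, 7.96 and 2.83 CPM against 0.378, 0.955 and 0.542 CPM (log2 change 2.89, SE 0.45, edgeR adjusted p = 0.000671). Both were higher in every mouse, though Gsdmd rested on few molecules. Nlrp3 had 0.569, 0.531 and 0 CPM and Casp1 0.569, 0.531 and 0.708 CPM in injured cells, and neither passed (edgeR adjusted p = 0.492 and 0.29). The mineralocorticoid and glucocorticoid list had 7 of 11 genes lower and 0 higher, and 3 lower with other-segment UMIs under 1 per 1000. The receptor Nr3c2 had 46.7, 46.2 and 43.9 CPM against 94.5, 97.6 and 96.2 CPM (log2 change -1.11, SE 0.09, edgeR adjusted p = 6.5e-06), and the kinase Sgk1 99.1, 71.1 and 63.0 CPM against 369.6, 159.9 and 214 CPM (log2 change -1.65, SE 0.12, edgeR adjusted p = 3.49e-06). Nr3c2 no longer passed within 5000 to 20000 UMIs or under either limit on other-segment UMIs, and Sgk1 passed in every alternative run. Both are also strong in the distal nephron, whose summed markers were lower in the injured cells.

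Genes of the response to tissue dissociation went both ways, with 7 of 21 higher and 8 lower. The shares over all genes tested were 15.4% and 15.7%. Atf3 rose by 0.93 and Egr1 by 0.85, and the chaperone Hsph1 fell by 0.53. Fos rose by 0.30 but stood at -0.014 in cells of at most 20% mitochondrial UMIs, and it also did not pass within 5000 to 20000 UMIs, without the second DOCA-salt mouse or without the mouse as a block. Their part in the other changes was not tested.

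Within the injured cells, levels of a few genes were set out by the number of Havcr1 UMIs. The values below are mean CPM of the 3 DOCA-salt mice in reference cells and in cells with 1 UMI plus Vcam1, 2 UMIs, 3 to 9 and 10 or more, and they are a description without a test, since Havcr1 defines both the classes and the cells. The lowest class is Vcam1-positive by the rule, so the classes differ in Vcam1 as well. Cd44 was at 6.41, 42.9, 53.6, 158 and 333 CPM. Ccl2 was at 28.4, 94.2, 261 and 479.9 CPM in the 4 classes of injured cells, and Spp1 at 5335, 16394, 20698, 25017 and 33259 CPM over all 5. Cd44, Ccl2 and Spp1 were thus highest in the class with the most Havcr1, although the class of 10 or more held 19, 10 and 12 cells per mouse. C3 was already high in the lowest class, at 73.8, 723, 455, 717 and 1174 CPM, where the first mouse had 1453 CPM and the others 359 and 356.

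The proximal tubule genes Slc34a1, Miox, Pck1, Slc22a6 and Hnf4a were lowest at 10 or more Havcr1 UMIs, and Miox, Pck1 and Slc22a6 were higher at 2 UMIs than at 1 UMI plus Vcam1. Slc34a1 was at 3915, 3120.2, 2983, 1784 and 503 CPM over the same 5 classes, Miox, an inositol oxidase of the proximal tubule, at 2639, 1451, 1509, 829.5 and 241 CPM and Pck1 at 1650.2, 728, 896, 331 and 147 CPM. Slc34a1 chose the reference cells but not the injured cells, and its level at 10 or more Havcr1 UMIs was below the 626 to 1774 CPM of the cells positive for genes of other types given above. The organic anion transporter Slc22a6 was at 303 CPM in reference cells, 287 and 381 CPM in the classes up to 2 UMIs and 127 CPM and 41.2 CPM above that. Hnf4a spanned 176, 166, 164, 128 and 85.3 CPM, a smaller range. The median depth of the classes of injured cells lay between 17278 UMIs at 2 Havcr1 UMIs and 24112 UMIs at 10 or more.

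**Figure D4:**
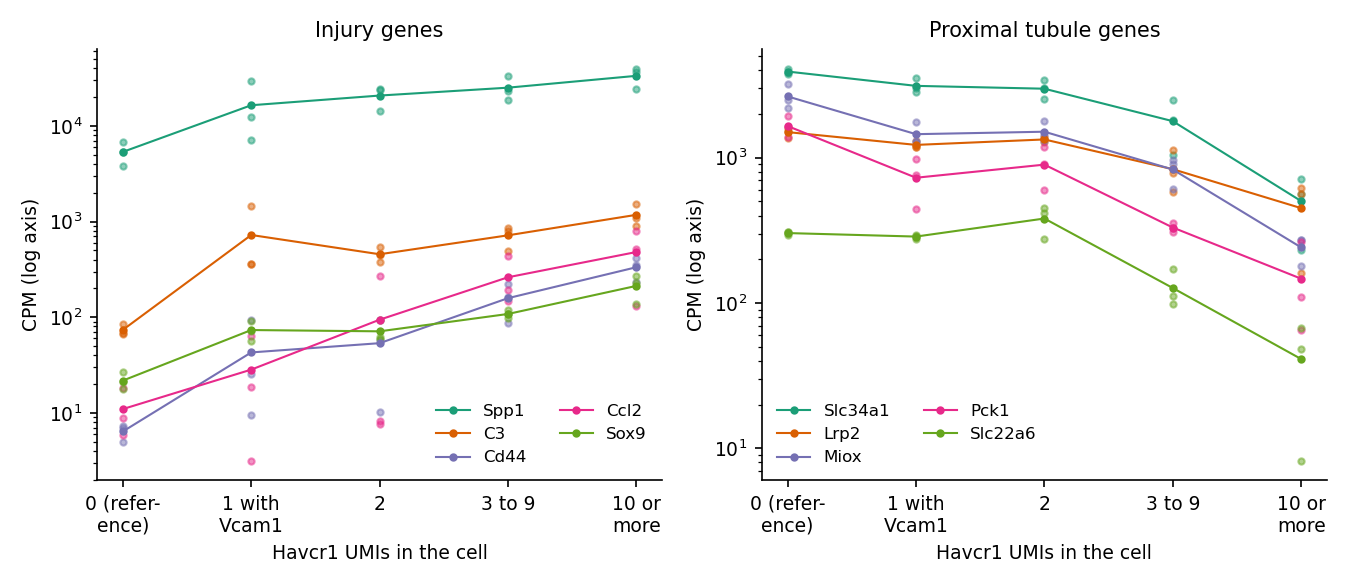
CPM on a log axis of injury genes (left) and proximal tubule genes (right) in DOCA-salt mice, by the number of Havcr1 UMIs in the cell; small points are mice and lines join the means of 3. From reference cells to cells of 10 or more Havcr1 UMIs, Cd44 goes from 6.41 to 333 CPM and Slc34a1 from 3915 to 503 CPM.

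Vcam1 divided the injured cells further. Among cells with at least 2 Havcr1 UMIs, Vcam1 played no part in the choice, and it was present in 43 of 64, 41 of 58 and 42 of 59 cells of the DOCA-salt mice (69.7% ± 2.18, SD, n = 3). Between the 126 cells with and the 55 without Vcam1, 151 of 7987 genes were higher with it (1.89%) and 213 lower (2.67%) by edgeR's quasi-likelihood test within mice. Cells with Vcam1 also had more Havcr1, a median of 6, 4 and 5 UMIs against 3, 3 and 3, and were somewhat deeper, at 23475, 23624 and 19995.5 UMIs against 20013, 19395 and 14903.

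Chemokine genes were higher in the Vcam1-positive cells. Of 19 inflammatory genes tested, 12 were higher in them and 0 lower. Beside this and the later lists split by Vcam1 stand 1.89% higher and 2.67% lower over all genes tested. Without the second DOCA-salt mouse 10 of 19 were higher, without the highest Scrublet scores 11 of 18, and with other-segment UMIs under 1 per 1000 8 of 18. Ccl2 had 171, 255 and 648 CPM in Vcam1-positive and 0, 6.02 and 0 CPM in Vcam1-negative cells (log2 change 7.02, SE 0.50, edgeR adjusted p = 3.78e-05). Pooled over the 3 mice these were 913 UMIs against 2, a ratio of 164 with a counting interval of 45.4 to 1360.3. That interval treats each UMI as independent and leaves out the spread between cells and between mice. Ccl5 had 30.7, 68.7 and 123 CPM, 191 UMIs, and no UMI in Vcam1-negative cells. Tgfb2 had 100.1, 83.3 and 139 CPM against 0, 0 and 9.03 CPM. The 3 genes were detected in Vcam1-negative cells in at most 1 mouse. Cxcl2 had 392, 316 and 102 CPM against 6.95, 0 and 18.1 CPM (log2 change 5.19, SE 0.55, edgeR adjusted p = 0.000456), and Cxcl1 328, 299.7 and 487 CPM against 58.0, 114 and 72.2 CPM (log2 change 2.07, SE 0.27, edgeR adjusted p = 0.00132). Nfkb1 was higher by 1.68, Tnfaip3 by 2.66, Csf1 by 2.22 and Icam1 by 1.06 on the log2 scale. Icam1 no longer passed with DESeq2, with at least 3 Havcr1 UMIs, without the second DOCA-salt mouse or without the highest Scrublet scores, and Csf1 not with DESeq2 or without the second mouse. With other-segment UMIs under 1 per 1000 the log2 changes were 10.5 for Ccl2 and 2.72 for Nfkb1, which passed (edgeR adjusted p = 0.00047 and 0.0020), and 1.49 for Cxcl1, 1.71 for Csf1 and 0.87 for Icam1, which did not (edgeR adjusted p = 0.0615, 0.0504 and 0.142). In cells with over 10 times as many proximal as other-segment UMIs, in 2 mice, none of the 13 inflammatory genes tested passed, Ccl2 (8.25) and Nfkb1 (2.53) among them (edgeR adjusted p = 0.0811 and 0.141).

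Injury genes went both ways with Vcam1. Of 38 tested, 8 were higher and 8 lower, but 7 and 4 without the second DOCA-salt mouse, 7 and 5 without the highest Scrublet scores, and 9 and 0 of 34 with other-segment UMIs under 1 per 1000. Cd44 had 242, 186 and 256 CPM with Vcam1 and 4.64, 18.0 and 13.5 CPM without it (log2 change 4.20, SE 0.36, edgeR adjusted p = 0.00011), and Vim 212, 134 and 87.6 CPM and 2.32, 18.0 and 13.5 CPM (log2 change 3.75, SE 0.46, edgeR adjusted p = 0.00106). Kcnip4, Dock10 and Sema5a were higher by 3.97, 2.97 and 1.30. On the other side, Lcn2 had 218, 47.9 and 11.8 CPM with Vcam1 and 489, 1191 and 411 CPM without it (log2 change -3.37, SE 0.60, edgeR adjusted p = 0.00905), and Clu 549, 296 and 171 CPM and 2925, 2725 and 1512 CPM (log2 change -2.99, SE 0.18, edgeR adjusted p = 1.78e-05). With other-segment UMIs under 1 per 1000 Cd44 and Vim remained higher (log2 changes 6.69 and 3.77, edgeR adjusted p = 0.00059 and 0.0030), whereas Lcn2 was at -1.26, Clu at 1.09 and Cd24a at 2.02, and none of the 3 passed (edgeR adjusted p = 0.574, 0.313 and 0.0607). Cd44 did not pass in cells with over 10 times as many proximal as other-segment UMIs (7.35, edgeR adjusted p = 0.141). Without the second DOCA-salt mouse Lcn2 and Anxa1 no longer passed, and without the highest Scrublet scores Spp1 and Dock10 did not. With at least 3 Havcr1 UMIs Dock10 and Anxa1 did not pass, with other-segment UMIs under 1 per 1000 Dock10 and Spp1 did not, and without the mouse as a block Anxa1 and Spp1 did not. Cd24a, Krt7, Anxa1 and Spp1 were lower with Vcam1 by 2.23, 3.00, 1.90 and 0.71. In the matrix list 6 of 21 were higher with Vcam1 and 0 lower, among them Col4a1 (1.08), but 3 without the second DOCA-salt mouse or without the highest Scrublet scores, Col4a1 not among them, and 5 higher and 1 lower of 17 with other-segment UMIs under 1 per 1000. The metallothioneins Mt1 and Mt2 and Gclc, which makes glutathione, were lower by 2.38, 2.64 and 1.99. Mt2 no longer passed without the second DOCA-salt mouse or with at least 3 Havcr1 UMIs, and Mt1 not with other-segment UMIs under 1 per 1000 (-0.61), where Gclc did (-1.96).

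Cells without Vcam1 also carried more thick ascending limb transcripts. Umod, the urinary protein of that segment, had 3639, 5189 and 2229.7 CPM without and 125, 149 and 60.2 CPM with Vcam1 (log2 change -5.14, SE 0.15, edgeR adjusted p = 4.44e-08). Slc12a1 had 899, 1011 and 1074 CPM and 57.5, 35.4 and 22.2 CPM (log2 change -4.78, SE 0.27, edgeR adjusted p = 1.65e-05). No mouse overlapped between the populations in either gene. At least 2 UMIs of Slc12a1 were found in 17 of the 55 cells without Vcam1 (30.9%), 13 of which also held at least 2 UMIs of Slc34a1, and in 17 of the 126 with Vcam1 (13.5%). Nrxn3, Tfap2b, Enox1, Plekhg1, Kcnj1, the potassium channel of the thick limb, and Rbfox1 were the other large falls with Vcam1, between -6.92 and -4.66. With other-segment UMIs under 1 per 1000, which left 115 of the 126 cells with and 38 of the 55 without Vcam1 in the 3 mice, 127 of 7223 genes were higher and 111 lower. The limit acts on Umod and Slc12a1 themselves, so their values under it are not read here. Of the 45 genes examined 10 were then not tested, 15 no longer passed and 20 did. In cells with over 10 times as many proximal as other-segment UMIs 2 mice were left and 1 of 5841 genes was higher and 0 lower. Without the second DOCA-salt mouse 58 genes were higher and 65 lower and 8 of the 45 no longer passed, and without the highest Scrublet scores 8 of the 39 still tested did not.

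Markers of other cells also moved with Vcam1. The smooth muscle or pericyte list summed to 283, 161 and 141 CPM with and 13.9, 24.1 and 27.1 CPM without it, and its contractile genes Acta2 and Tagln were higher by 3.52 and 3.53 on the log2 scale (edgeR adjusted p = 0.00695 and 0.00113). The parietal epithelial list was at 349, 463 and 611 CPM against 46.4, 165 and 320.5 CPM, with Akap12 higher by 3.73 (edgeR adjusted p = 0.000558). The macrophage list was at 938, 1419 and 1275 CPM against 294, 523 and 876 CPM, most of it Cd74, which was higher by 1.30 (edgeR adjusted p = 0.00887). The thick ascending limb list was at 472, 453 and 389 CPM against 5225, 6588 and 4085 CPM. The part of such cells in the differences between cells with and without Vcam1 was not tested.

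**Figure D5:**
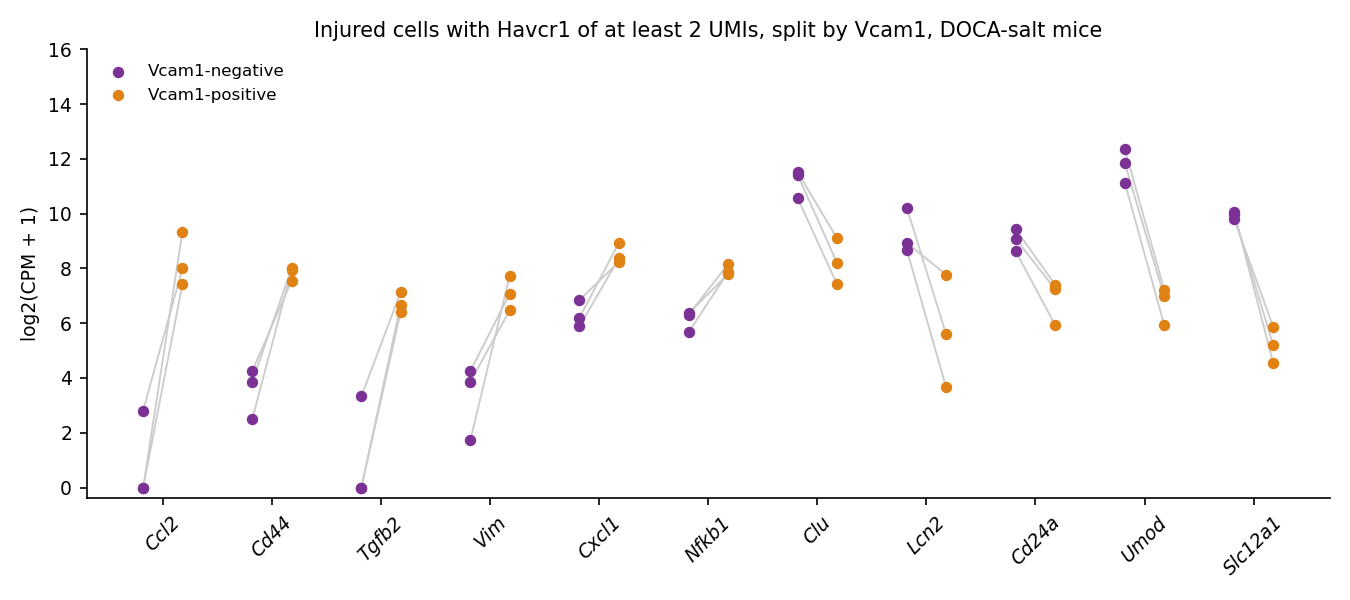
Log2(CPM + 1) of 11 genes in injured cells with at least 2 Havcr1 UMIs of the 3 DOCA-salt mice; lines join the cells without Vcam1 (purple) and with Vcam1 (orange) of a mouse. The genes from Ccl2 to Nfkb1 are higher with Vcam1 in every mouse, and those from Clu to Slc12a1 lower.

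By the nephron segment whose marker list was highest in a cell, 89 of the 257 injured cells of DOCA-salt mice fell to S1, 30 to S2 and 72 to S3, or 34.7% ± 4.04, 11.6% ± 1.52 and 28.1% ± 3.55 per mouse (SD, n = 3). A further 27 fell to the podocyte list, 19 to the distal convoluted tubule, 15 to the thick ascending limb, 4 to intercalated and 1 to principal cells. The reference cells of the same mice fell 41.7% ± 1.76 to S1, 25.0% ± 2.14 to S2, 15.5% ± 2.34 to S3, 2.03% ± 0.463 to the podocyte list, 3.25% ± 0.746 to the distal convoluted tubule and 5.76% ± 0.811 to the thick ascending limb (SD, n = 3); the 2 populations were not tested against each other. These classes are ranges of a score, and in 23.0% of the cells the second list came within 20% of the first. The podocyte markers summed to 13.7, 29.7 and 24.1 CPM in the injured cells against 13.3, 19.6 and 15.0 CPM in reference cells, and the 27 cells are not called podocytes here. Among the 12 sham cells 6 fell to S1 and 3 to S3, and every exact permutation test between the groups gave p of at least 0.1 (adjusted p of at least 0.267).

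The sham mice had 4, 2 and 6 injured cells, under the limit of 10 cells per sum set for the fits, so their profile was not tested and their values stand alone. They held 202295 UMIs in all, and 1, 1 and 6 of the cells had Vcam1. The third sham mouse stood apart. All 22 UMIs of Cd44 and all 80 of Ccl2 came from it, at 303 and 1102 CPM, and Hspb1 was at 287, 295 and 1887 CPM in the 3 mice. Spp1 was at 2851, 837 and 13198 CPM and C3 at 143, 49.2 and 344 CPM. The proximal tubule list summed to 8303, 6057 and 1088 CPM and the macrophage list to 53.8, 665 and 854 CPM. Cxcl1 was more even, at 323, 788 and 386 CPM, Lcn2 had no UMI in any mouse and Krt20 had 3. Whether these profiles differ from those of the DOCA-salt mice was not tested.

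Several of the same genes were higher in the DOCA-salt reference cells, which have no Havcr1. Between DOCA-salt and sham reference cells, 396 of 17840 genes were higher (2.22%) and 173 lower (0.97%) by edgeR's quasi-likelihood test. These share the DOCA-salt reference sums with the comparison above. Markers of other cells moved as well, although both sets of reference cells held no Ptprc, Pecam1, Col1a1 or Cd79a. The macrophage list was at 138.2, 102 and 132 CPM in sham and 237, 442 and 414 CPM in DOCA-salt reference cells, the fibroblast list at 5.61, 2.43 and 5.28 CPM and 17.6, 25.6 and 22.2 CPM, and the parietal epithelial list at 65.7, 62.0 and 67.2 CPM and 81.3, 122 and 114 CPM. Their part in the changes below was not tested. Spp1 was higher by 1.99 on the log2 scale, Lcn2 by 2.31, Sox9 by 1.78, Cd44 by 1.31, C3 by 1.87, Ccl2 by 2.59 and Fn1 by 2.87, and each passed with all 6 mice (edgeR adjusted p between 0.00094 and 0.0174). Without the first sham mouse Spp1, Lcn2, Cd44 and Ccl2 no longer passed, without the third DOCA-salt mouse Spp1, Lcn2 and Cd44, and without the second Cd44 (edgeR adjusted p of these lost calls between 0.0661 and 0.0948). C3, Fn1 and Sox9 passed whichever mouse was left out. Krt20, Il34 and Cxcl1 did not pass (log2 changes 0.87, 0.31 and 0.31). Without the first sham mouse 67 genes were higher and 23 lower, without the third sham mouse 214 and 78, without the first DOCA-salt mouse 306 and 79, without the second 119 and 37, without the third 65 and 19, and without the second sham mouse 871 and 658.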

How the data were processed

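Single-cell RNA was measured in 6 mouse kidneys, 1 10x 3-prime library each. The deposited matrices hold UMI counts per gene and barcode, made by the authors with Cell Ranger (9.0.0 in the submitters' processing notes, 8.0.1 in the file header) on GRCm39; the notes also list Seurat 4.0.0 and R 4.0.3. No deposited cell annotation was used here, so cells were chosen by their own counts.

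Barcodes with at least 1000 UMIs and at most 50% mt- UMIs were kept, 50910 of 76774. Counts were summed per mouse over each population of at least 10 cells and tested with edgeR 4.0.16 (quasi-likelihood, TMM, filter on low counts, mouse as a block within mice) in R 4.3.3, and p-values were adjusted by Benjamini-Hochberg across every gene in the fit. Sham mice had fewer than 10 injured cells each, so the planned tests in sham mice and of the group difference were not fitted. Shares were compared by two-sided exact permutation tests. CPM left mt- UMIs out of the total. Doublet scores came from scanpy 1.11.5. Each test script was checked on simulated data. Alternatives were DESeq2 1.42.0, other scaling, no filter, leaving out each mouse, and other limits on cells; the comparison of reference cells between groups, the limits on UMIs of other segments and the pairing of the share were chosen after seeing the data. The members and gene lists were chosen with earlier results of these data known. Named genes were list members, by role, and the 8 largest rises and falls at an adjusted p under 0.05 with at least 20 CPM and 1 direction in every mouse, leaving out mt- and predicted genes and the 7 genes that chose the cells. Values of some list members are not reported here. Each group had 3 mice. P-values of the comparisons within mice rest on the paired differences of the 3 DOCA-salt mice, and those between groups on the spread between mice. The edgeR fits also share their estimate of spread across genes. The SE beside an edgeR log2 change was worked back from the test, as the size of the change over the square root of its F statistic. It is not the spread of the paired differences between mice.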

Additional observations from a re-analysis of the deposited data

How the results depend on the processing

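The share of injured cells stayed higher in DOCA-salt mice under every alternative run, by 0.132 to 1.72 percentage points, and by 0.907 to 0.964 when a mouse was left out. The comparison of injured with reference cells gave 4009 higher and 1672 lower genes with library size as the only scaling, 1156 and 1609 within 5000 to 20000 UMIs, and 1458 higher in cells with over 10 times as many proximal as other-segment UMIs. Leaving out a mouse gave 1488 to 1924 higher and 1745 to 2149 lower, the fewest without the second DOCA-salt mouse. The Vcam1 comparison gave 83 higher and 128 lower with DESeq2, 238 higher with library size only, 412 and 378 with no filter, 70 and 62 without the highest Scrublet scores, 1 and 0 with over 10 times as many proximal as other-segment UMIs, 111 lower with other-segment UMIs under 1 per 1000, and 58 to 178 higher and 65 to 237 lower when a mouse was left out; within 5000 to 20000 UMIs it was not run, since 1 mouse had enough cells. Reference cells of DOCA-salt against sham mice gave 821 and 466 with DESeq2, and 65 to 871 higher and 19 to 658 lower when a mouse was left out. The limits on cells also leave fewer cells, and the cause of these changes in counts was not tested.

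Signs turned for Pax8 (-0.022) and Fos (-0.014) at 20% mt- UMIs, for Krt18 (0.15), Mki67 (-2.05), Top2a (-0.20) and Cenpf (-8.98) within 5000 to 20000 UMIs, for Krt7 (0.073), Krt18 (0.32) and Hk1 (0.10) against Lrp2 reference cells, and for Vim (-0.049), Krt7 (0.29), Krt18 (0.67) and Cd59a (0.14) with over 10 times as many proximal as other-segment UMIs. With other-segment UMIs under 1 per 1000 they turned for Krt18 (0.53) and, in the Vcam1 comparison, for Clu (1.09) and Cd24a (2.02). The S3 share differed by -5.22 points and by 3.12 without the first or the second sham mouse, the distal convoluted share by -3.80 and by 7.43 at 20% mt- UMIs and 7.31 without the third sham mouse. Leaving out a mouse gave -21.9 to 3.12 for S3 and -9.36 to 7.31 for the distal convoluted tubule.

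Sham and DOCA-salt mice share replicate numbers, but same-numbered sums did not deviate together (correlations -0.137, -0.431 and 0.0224). With 3 mice per group these correlations cannot exclude a pairing, and the main tests between groups used none. With the replicate block the reference comparison gave 62 higher and 18 lower, and 8 of the 15 genes examined no longer passed. Paired by number, the share differed by 0.937 points with an exact p of 0.25, the smallest 3 pairs allow. With 2 to 6 injured cells per sham mouse, under the limit of 10 cells per sum set for the fits, the profile of sham injured cells was not tested.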
